A study of Mus musculus with 12 samples.

Results

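Heat shock chaperones were followed in murine hip cartilage before and after mechanical injury through 10 genes. They were Hspa1a, Hspa1b and Hspa8 (HSP70 proteins), Dnajb1 (a J-domain co-chaperone), Hspb1 and Hspb8 (small heat shock proteins), Hspd1 and Hspe1 (the mitochondrial chaperonin), Hsf1 (the heat shock transcription factor) and Bag3 (an HSP70 co-chaperone). The members were every probe whose symbol in the normalized table was one of these names, which gave 17 of 21004 probes and 10 of 15424 gene symbols. RNA of femoral head cartilage from C57BL6 mice aged 4 to 6 weeks was measured on Illumina mouse BeadChip arrays, with 3 arrays in each of 4 groups. The groups were control and injured hips of WT mice and of Mapk9 KO mice, where Mapk9 encodes the stress kinase JNK2. The hips of several freshly culled mice were pooled for each replicate. All hips were injured by avulsion of the femoral epiphysis at dissection: control hips were snap-frozen at once, and injured hips were kept in serum-free medium for 4 h, so that injury and culture cannot be told apart. How the knockout was made, and in which cells, is not given in the sources used here.

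Heat shock proteins hold unfolded proteins and help them to refold or to be degraded. HSP70 proteins bind and release clients in a cycle driven by ATP, J-domain proteins hand clients to HSP70 and start that cycle, and BAG proteins release the nucleotide. Small heat shock proteins keep clients from aggregating without ATP. HSF1 is kept inactive in resting cells and, once released by protein damage, binds heat shock elements in the promoters of inducible chaperone genes, whereas the constitutive HSP70, Hspa8, is abundant in unstressed cells.

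Between 16930 and 18969 probes were detected per array (detection p under 0.05). Of the chondrocyte markers, 10 of 12 were in the table and all 10, Col2a1 and Acan among them, were detected on all 12 arrays, as were most of the listed markers of red cells, marrow myeloid cells, bone and skeletal muscle. Mapk9 was lower in Mapk9 KO control than in WT control hips, with a log2 difference of -1.57 (SE 0.21, adjusted p = 0.0151, limma) at its main probe, which was still detected on all knockout arrays. Its second probe was not detected on any knockout array and was at least 1.92-fold higher in WT control hips. In these bulk samples, fewer cells of a type and less RNA per cell cannot be told apart. Values below are log2 normalized signals and changes are injured minus control unless stated, and "upregulated" is used for an adjusted p under 0.05 over all probes. The p-values measure only the spread between these pooled samples.

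Post injury, the members that passed the test were all upregulated, in both genotypes. In WT hips 7 of 17 probes were upregulated and 0 downregulated (11 had an unadjusted p under 0.05), against 12.6% of all probes upregulated. With array medians subtracted 11 were upregulated, and with the replicate block 9. The fold limit of 2 was also passed by 5 of them, the Hspa1a probes, Hspa1b, Hspb1 and Dnajb1, against 7.55% of all probes. This count was 8 without WT control replicate 3 and 3 with the methods' t-test. In Mapk9 KO hips 9 of 17 were upregulated and 0 downregulated (11 unadjusted, and 12 upregulated with the block), against 19% of all probes, and 6 also passed the fold limit, against 9.59%. The injured arrays lay above all control arrays at 10 of 17 probes in WT hips, against 20.3% of all probes, and at 9 of 17 in Mapk9 KO hips, against 24.5%. The median change of the 17 probes was 0.76 in WT and 0.60 in Mapk9 KO hips, beside -0.02 for all probes in each. With 3 arrays against 3, an exact permutation test of a single gene cannot go below p = 0.1, so the limma fit is given throughout.

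**Figure D1:**
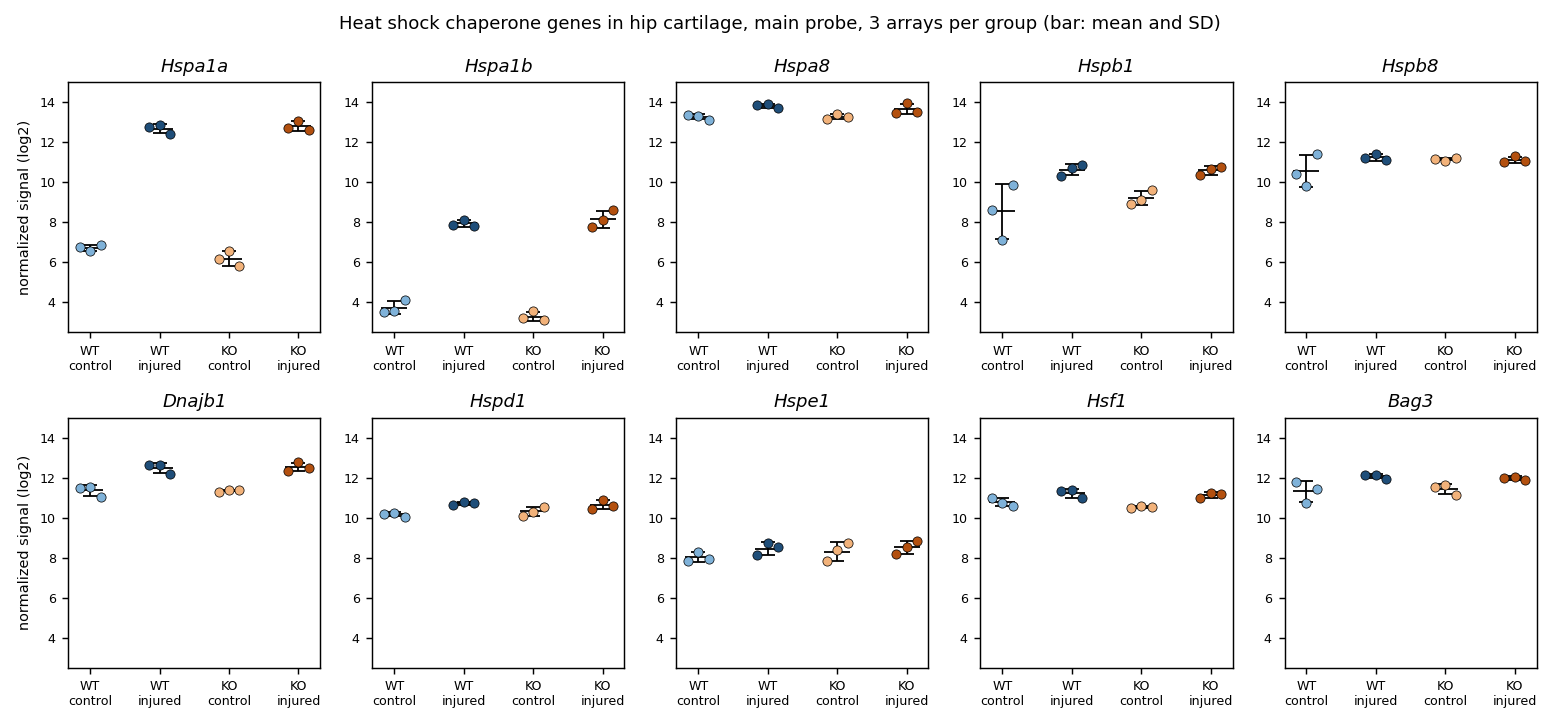
Normalized signal (log2) of the main probe of each of the 10 genes on every array, by group, with the mean and SD of 3 arrays. Hspa1a lies between 5.82 and 6.85 on the control arrays and between 12.43 and 13.09 on the injured arrays.

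The inducible HSP70 genes had the largest changes among the members. Hspa1a encodes the stress-inducible cytosolic HSP70. Its main probe read 6.75, 6.55 and 6.85 on the WT control arrays and 12.76, 12.87 and 12.43 on the WT injured arrays. The Mapk9 KO control arrays read 6.15, 6.57 and 5.82 and the injured arrays 12.74, 13.09 and 12.61 post injury. Every injured array lay above every control array in both genotypes, by a wide gap. The change was 5.97 in WT (SE 0.21, 62.7-fold, adjusted p = 4.50e-07, limma) and 6.63 in Mapk9 KO (SE 0.23, 99.2-fold, adjusted p = 6.22e-08, limma). Its size depended on the processing, and over the alternatives run it was as small as 4.85 in WT and 5.31 in Mapk9 KO hips. On 1 Mapk9 KO control array the probe was not detected. The second Hspa1a probe was not detected on any control array of either genotype. It was at least 8.55-fold higher post injury in WT and at least 10.2-fold higher in Mapk9 KO hips, the bound being set by the dimmest detected probes of the control arrays. These bounds hold for the deposited values. Over the alternatives run, the fitted log2 change at this probe was as small as 2.10 in WT and 2.42 in Mapk9 KO hips.

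Hspa1b, the neighbouring inducible HSP70 gene, encodes a nearly identical protein. Its probe read 7.86, 8.14 and 7.83 on the WT injured arrays and 7.78, 8.10 and 8.62 on the Mapk9 KO injured arrays, and it was not detected on any control array. Hspa1b was at least 4.28-fold higher post injury in WT and at least 4.70-fold higher in Mapk9 KO hips, on the deposited values. The fitted change, which uses the undetected control values, had an adjusted p of 2.58e-06 in WT and 1.96e-07 in Mapk9 KO hips (limma). Over the alternatives run, that log2 change was as small as 1.58 in WT and 1.81 in Mapk9 KO hips. How far signal of the similar Hspa1a and Hspa1b transcripts is shared between their probes was not tested.

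The Hspa1a promoter is shown because this gene had the largest change. RefSeq promoter windows (GRCm38.p6, 300 bases each, transcription start at the end of the first 250) were given for 8 of the 10 genes. They were searched on both strands for the heat shock element, as alternating inverted GAA units spaced by 2 free bases. Runs of 2 units were written GAANNTTC or TTCNNGAA, and runs of 3 units GAANNTTCNNGAA or TTCNNGAANNTTC, so that each run of 3 also holds runs of 2. Of 32851 promoter windows, 15.1% held a run of 2 and 0.603% a run of 3. The 250 bases upstream of Hspa1a, chr17:34972157-34972406 on the minus strand, held a run of 2 units, given in capitals, at position -104 from the start.
Hspa1a: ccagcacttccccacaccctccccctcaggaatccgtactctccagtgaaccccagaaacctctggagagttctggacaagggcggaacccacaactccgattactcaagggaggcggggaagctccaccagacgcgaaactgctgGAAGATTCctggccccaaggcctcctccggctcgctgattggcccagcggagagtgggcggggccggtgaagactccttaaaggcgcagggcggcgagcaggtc
The window of Hspa1b differed from it at 4 of 300 bases and held the same run at the same position.

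Hspa8 encodes the constitutive cytosolic HSP70 and was bright on every array. Its main probe read 13.38, 13.30 and 13.14 on the WT control arrays and 13.85, 13.92 and 13.73 on the WT injured arrays. The Mapk9 KO values were 13.16, 13.43 and 13.25 in controls and 13.49, 13.97 and 13.53 post injury. The groups did not overlap in either genotype, but the steps were small beside those of Hspa1a. The change was 0.56 in WT (SE 0.19, adjusted p = 0.0556, limma, and 0.0438 with the replicate number as a block) and 0.38 in Mapk9 KO (SE 0.19, adjusted p = 0.141). The probe beside it in the transcript changed by 0.60 in WT (adjusted p = 0.0619, and 0.0490 with the block) and 0.43 in Mapk9 KO hips (adjusted p = 0.102, and 0.0431 with the block). Another downstream probe was upregulated by 0.89 in WT hips (SE 0.28, adjusted p = 0.0431, limma), a call lost without any of 4 single arrays (WT control 1 or 2, WT injured 2 or 3), and changed by 0.96 in Mapk9 KO hips (adjusted p = 0.0756, and 0.00177 with the block). The fourth Hspa8 probe is described with that of Hspd1.

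Dnajb1, the stress-inducible J-domain partner of HSP70, was upregulated by nearly the same amount in both genotypes. It read 11.50, 11.54 and 11.06 on the WT control arrays and 12.65, 12.62 and 12.18 on the WT injured arrays. The Mapk9 KO hips read 11.31, 11.39 and 11.38 in controls and 12.36, 12.78 and 12.48 post injury. No control array reached an injured array. The change was 1.12 in WT (SE 0.23, adjusted p = 0.00562, limma) and 1.18 in Mapk9 KO hips (SE 0.18, adjusted p = 0.000416, limma). The differences between arrays of the same replicate number were 1.15, 1.07 and 1.12 in WT and 1.05, 1.39 and 1.10 in Mapk9 KO hips. The WT change fell under the fold limit, to 0.96, without WT control replicate 3. Neither of the 2 RefSeq windows of Dnajb1 held a run of GAA units.

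**Figure D2:**
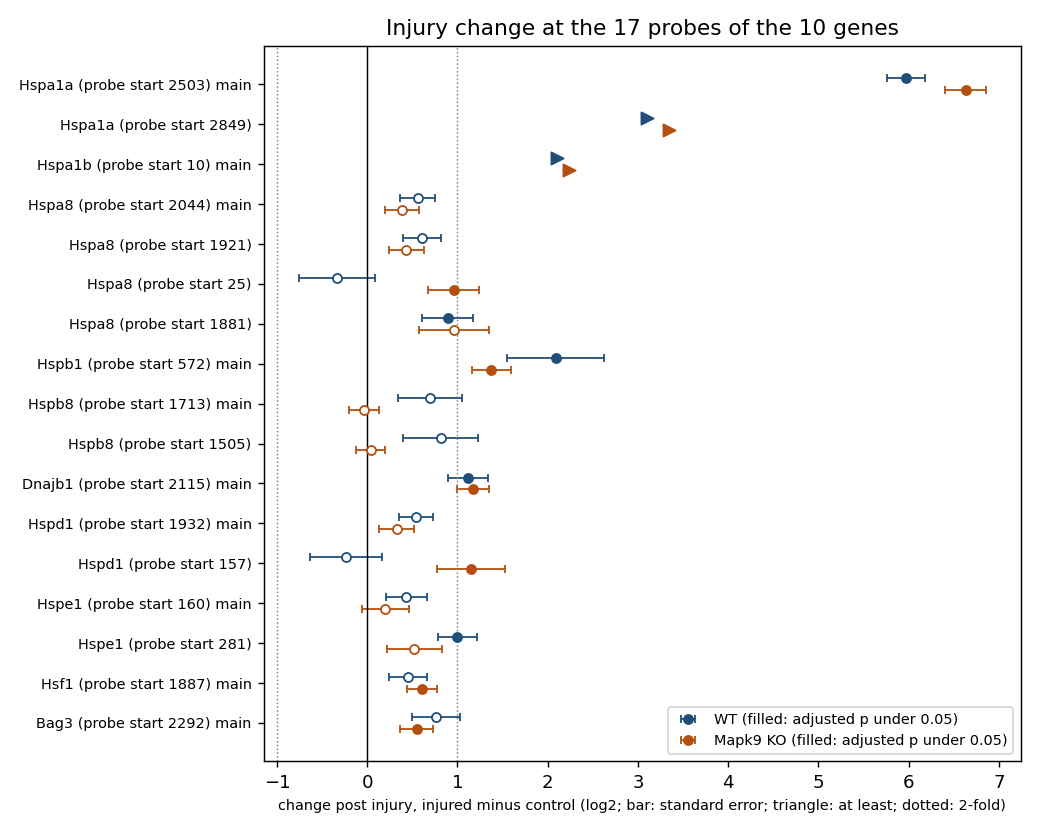
Change post injury (log2, injured minus control, bars are standard errors of 3 against 3 arrays) at the 17 probes in WT and Mapk9 KO hips, each probe named by its start in the transcript. The main Hspa1a probe lies at 5.97 and 6.63, triangles mark lower bounds at the second Hspa1a probe and at Hspa1b, whose controls were not detected, and every other probe lies at or under 2.09.

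Hspb1, which encodes HSP27, was upregulated in both genotypes, with control arrays that spread widely in WT hips. It read 8.60, 7.14 and 9.89 on the WT control arrays and 10.34, 10.70 and 10.86 on the WT injured arrays. The probe read 8.94, 9.11 and 9.63 in Mapk9 KO controls and 10.37, 10.66 and 10.78 post injury. The injured arrays of both genotypes covered nearly the same range and lay above all controls. The change was 2.09 in WT (SE 0.54, adjusted p = 0.0177, limma) and 1.38 in Mapk9 KO hips (SE 0.22, adjusted p = 0.000573, limma). The WT call was lost without WT control replicate 1 (adjusted p = 0.0552) and without WT injured replicate 3 (0.0532). The WT change was 1.39 without control replicate 2, the lowest control, and 2.76 without control replicate 3, the highest. Its promoter held runs of 2 units at positions -117 and -97, shown with the bases around them (chr5:135887795-135887836, plus strand, runs in capitals).
Hspb1: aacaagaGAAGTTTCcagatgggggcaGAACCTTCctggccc

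Hspb8, the small heat shock protein that binds BAG3, did not pass the test in either genotype. Its main probe read 10.44, 9.82 and 11.42 on the WT control arrays and 11.21, 11.44 and 11.12 on the WT injured arrays, which overlapped. The Mapk9 KO arrays lay between 11.03 and 11.30 before and after injury. The change was 0.70 in WT (SE 0.35, adjusted p = 0.178, limma) and -0.03 in Mapk9 KO hips (SE 0.17, adjusted p = 0.896). Without WT control replicate 3, the highest control, the WT change was 1.13 (adjusted p = 0.0115), and the second Hspb8 probe moved likewise, from 0.81 to 1.31 (adjusted p = 0.0172). Between arrays of the same replicate number it was 0.77, 1.63 and -0.31, the last being also the only WT pair whose label code carried the number 2.

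The 5 other small heat shock protein genes in the table, Cryab, Hspb2, Hspb3, Hspb6 and Hspb7, are abundant in muscle, and none of them was upregulated. In WT hips Hspb2 fell by 1.14 (SE 0.36, adjusted p = 0.0421, limma) and Hspb3 was also downregulated (adjusted p = 0.0350). Cryab, Hspb6 and Hspb7 did not pass in WT hips. Between WT control and WT injured hips the mean of Cryab went from 9.88 to 10.29, that of Hspb6 from 12.23 to 11.49 and that of Hspb7 from 6.80 to 5.90. Without WT control replicate 3 the Hspb2 change was -0.71 (adjusted p = 0.0898), and each WT injured array left out in turn ended the Hspb3 call, as replicates 1 and 2 did for Hspb2. Hspb3 was detected on 1 WT control array, replicate 3 (7.94, against 5.10 and 5.41 on the others), and on no WT injured array, so no fold is given. Against these 2 of 5, 7.16% of all genes at 1 probe per gene were lower past the fold limit. In Mapk9 KO hips all 5 were downregulated, and 4 passed the fold limit, against 9.55% of all genes: Hspb6 fell by 2.16, Hspb2 by 1.78, Hspb3 at least 4.10-fold and Hspb7 at least 6.18-fold, while Cryab fell by 0.79, a call lost with all 12 arrays in the fit (adjusted p = 0.152). Without background correction the Hspb2 change in Mapk9 KO hips was -0.92, under the fold limit. Over the alternatives run, the fitted log2 changes of Hspb3 and Hspb7 in Mapk9 KO hips were as small as -1.45 and -1.65. Hspb6 and Hspb7 lie outside the naming rule and are given because the count is small. The interaction of genotype and injury passed for none of the 5 (smallest adjusted p = 0.434).

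Skeletal muscle markers fell post injury in both genotypes. Of 14 markers, 13 were downregulated past the fold limit in WT hips and 14 in Mapk9 KO hips, and the other marker, Tnni2, changed by -0.81 in WT. Their summed level lay between 16.2 and 16.7 in WT control hips and fell to between 13.33 and 15.20 on the injured arrays. For Mapk9 KO hips the sum was between 16.92 and 17.52 in controls and between 13.71 and 14.99 post injury. Chondrocyte markers went the other way, with 7 of 10 upregulated past the fold limit in each genotype. Macrophage markers were mixed, with 4 of 7 downregulated past the fold limit in WT and 5 of 7 in Mapk9 KO hips, and 1, Cd14, upregulated past it in each, while Lyz2 was upregulated on the adjusted p alone. Their summed level was nevertheless higher post injury, from between 13.03 and 13.57 to between 14.23 and 14.50 in WT and from between 13.36 and 13.69 to between 14.31 and 14.74 in Mapk9 KO hips. Of 3 adipocyte markers 1 was downregulated past it in WT, Cidec, and 2 in Mapk9 KO hips, Cidec and Adipoq, and their summed level was lower post injury in both, from between 9.74 and 10.61 to between 8.91 and 9.16 in WT and from between 10.25 and 11.63 to between 8.66 and 9.18 in Mapk9 KO hips. Of 8 marrow myeloid markers 3 were upregulated past it in WT and 2 in Mapk9 KO hips, Elane and Ngp among them. WT control replicate 2 was the lowest of its group for the muscle sum, for Hspb1 and Hspb8 and for the summed small heat shock protein genes, and replicate 3 was the highest. The part of muscle and of these other cells in the small heat shock protein results was not tested.

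**Figure D3:**
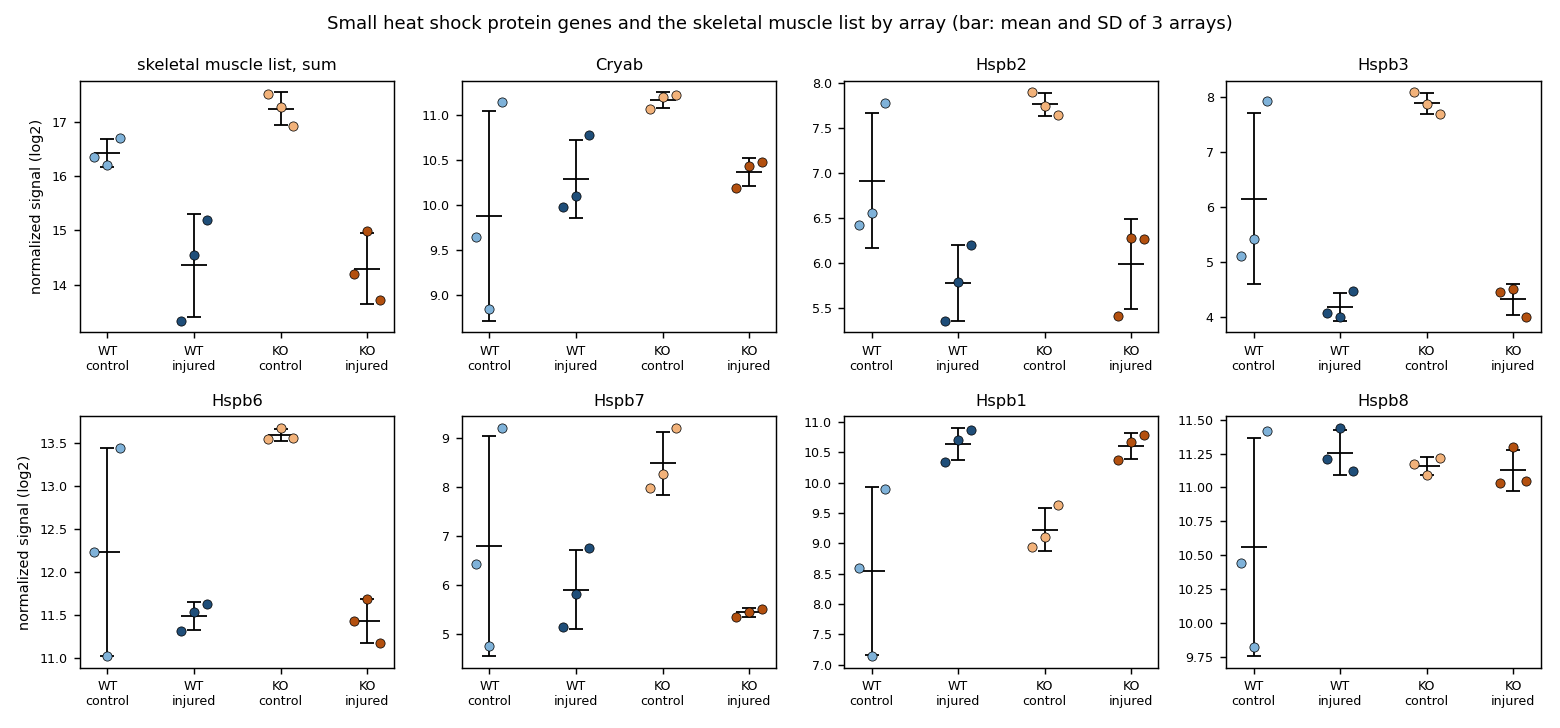
Normalized signal (log2) of the summed skeletal muscle markers and of 7 small heat shock protein genes on every array, with the mean and SD of 3 arrays. The muscle sum lies between 16.2 and 17.52 on control arrays and between 13.33 and 15.20 on injured arrays, while Hspb1 lies higher post injury.

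Hspd1 and Hspe1 encode the HSP60 chaperonin and its HSP10 lid, which fold proteins inside mitochondria. The main Hspd1 probe read 10.21, 10.26 and 10.06 on the WT control arrays and 10.65, 10.77 and 10.73 on the WT injured arrays, without overlap. The Mapk9 KO readings were 10.08, 10.31 and 10.55 in controls and 10.45, 10.89 and 10.59 post injury, with overlap. The change was 0.54 in WT (SE 0.19, adjusted p = 0.0583, limma) and 0.33 in Mapk9 KO hips (SE 0.20, adjusted p = 0.218), so neither passed. The WT change did pass with array medians subtracted, quantile normalization without background correction, the label code number as a block, all 12 arrays in the fit or the methods' t-test (adjusted p between 0.0167 and 0.0451). The main Hspe1 probe changed by 0.43 in WT (adjusted p = 0.200) and 0.20 in Mapk9 KO hips (adjusted p = 0.580). The second Hspe1 probe read 7.41, 7.68 and 7.87 on the WT control arrays and 8.42, 8.68 and 8.87 on the WT injured arrays. It was upregulated by 1.00 in WT hips (SE 0.22, adjusted p = 0.00775, limma), at the fold limit, with differences of 1.00, 0.99 and 1.00 between arrays of the same number. It passed the limit with normexp (1.02), with array medians subtracted (1.05) and without WT control replicate 2 or 3 or WT injured replicate 1 (1.01 to 1.12), and it missed the adjusted p with the methods' t-test (0.0512). In Mapk9 KO hips it changed by 0.52 (SE 0.30, adjusted p = 0.206, and 0.0329 with the block).

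The Hspe1 promoter is shown because it shares its bases with the gene beside it. Hspe1 and Hspd1 lie head to head on chromosome 1, and the Hspe1 window overlapped 1 of the 2 Hspd1 windows by 285 bases on the opposite strand. The bases upstream of Hspe1 (chr1:55087898-55088147, plus strand) held the only runs of 3 GAA units among the members, a pair that overlap, in capitals.
Hspe1: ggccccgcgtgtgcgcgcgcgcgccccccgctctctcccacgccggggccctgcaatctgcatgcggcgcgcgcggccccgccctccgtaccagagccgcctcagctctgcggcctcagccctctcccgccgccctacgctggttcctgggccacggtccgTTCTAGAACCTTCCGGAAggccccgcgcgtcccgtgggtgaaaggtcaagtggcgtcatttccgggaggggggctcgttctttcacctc
Read from the Hspd1 side, the same run starts at position -144 from the Hspd1 start. The other Hspd1 window held no run.

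Hsf1 and Bag3 were upregulated in Mapk9 KO hips, below the fold limit. Hsf1 read 11.00, 10.73 and 10.60 on the WT control arrays and 11.34, 11.38 and 10.97 on the WT injured arrays, which overlapped. It read 10.50, 10.58 and 10.54 in Mapk9 KO controls and 10.99, 11.26 and 11.18 post injury, without overlap. Its change was 0.45 in WT (SE 0.21, adjusted p = 0.150, limma) and 0.60 in Mapk9 KO hips (SE 0.17, adjusted p = 0.0148), the latter lost without Mapk9 KO injured replicate 2 (adjusted p = 0.0526). Bag3, which links HSP70 and HSPB8 to autophagy, read 11.78, 10.73 and 11.43 on the WT control arrays and 12.12, 12.14 and 11.96 on the WT injured arrays. It read 11.52, 11.63 and 11.15 in Mapk9 KO controls and 12.01, 12.05 and 11.89 post injury, and injured arrays lay above controls in both genotypes. The Bag3 change was 0.76 in WT (SE 0.27, adjusted p = 0.0608, limma) and 0.55 in Mapk9 KO hips (SE 0.18, adjusted p = 0.0364), the latter lost without either of 2 control arrays (replicates 1 and 3) or without any injured array. In the promoter windows, runs of 2 units lay past the start at position 3 in Hspb8 and 43 in Bag3.

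Between the genotypes in injured hips, the upstream probes of Hspd1 and Hspa8, described next, passed the test with the replicate number as a block. For the interaction only that of Hspd1 did. Without the block and with all arrays, 0 of 17 probes passed between genotypes in control hips (1 had an unadjusted p under 0.05, against 0.119% of all probes called), 0 in injured hips (2 unadjusted, 0.181% of all called) and 0 for the interaction (3 unadjusted, 0% of all called), by limma. The interaction was 0.66 for Hspa1a (SE 0.31, adjusted p = 0.495) and 0.06 for Dnajb1 (SE 0.28, adjusted p = 0.961). For Hspb1 it was -0.71 (SE 0.67, adjusted p = 0.764). No interaction is given for Hspa1b, which was not detected on any control array. These p-values do not show that the genotypes responded alike.

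In WT hips the mean signal was lower post injury at the upstream probes of Hspd1 and Hspa8, which did not pass, and higher at the downstream ones. The Hspd1 probe starting at base 157 read 7.81, 6.48 and 7.69 on the WT control arrays and 7.66, 6.39 and 7.23 on the WT injured arrays. Signals in Mapk9 KO hips were 7.57, 6.65 and 7.87 in controls and 9.07, 7.69 and 8.77 post injury. The change was -0.23 in WT (SE 0.40, adjusted p = 0.718, limma) and 1.15 in Mapk9 KO hips (SE 0.38, adjusted p = 0.0341), the latter lost without Mapk9 KO control replicate 2, without injured replicate 1 or 3, with all 12 arrays in the fit (adjusted p = 0.0593) and with the methods' t-test (0.209). The arrays of number 2 were the lowest in every group, and between arrays of the same number the probe differed by -0.15, -0.09 and -0.46 in WT and by 1.50, 1.04 and 0.90 in Mapk9 KO hips. With the replicate block, the interaction was 1.38 (SE 0.22, adjusted p = 0.0329, limma, against 0.494 without it), among 0.533% of all probes called. The Hspa8 probe starting at base 25 changed by -0.34 in WT (adjusted p = 0.606) and was upregulated by 0.96 in Mapk9 KO hips (SE 0.28, adjusted p = 0.0211), a call lost without any of 4 single arrays. The dimmest downstream Hspa8 probe also changed by 0.96 in Mapk9 KO hips (adjusted p = 0.0756, limma). With the replicate block, the interaction at the upstream Hspa8 probe was 1.30 (SE 0.26, adjusted p = 0.0569, limma) and did not pass. Both upstream probes were higher in Mapk9 KO than in WT injured hips with the block, Hspd1 by 1.41 (adjusted p = 0.0210) and Hspa8 by 1.40 (adjusted p = 0.0350), among 1.3% of all probes called. With no array left out, neither passed without the block.

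Over many transcripts, the upstream probe was also higher, relative to the downstream one, on the Mapk9 KO injured arrays than on the WT injured arrays of the same number. This comparison was chosen after the data were seen. The upstream probe was the one with the lowest start, at any distance from the transcript start, and the members were not left out. Over 1072 transcripts with probes at least 1000 bases apart, the median of upstream minus downstream signal was -1.04, -1.33 and -1.17 on the Mapk9 KO injured arrays. It was -1.26, -1.63 and -1.42 on the WT injured arrays, and between -1.54 and -1.30 on the control arrays. The upstream probe differed more positively than the downstream one in 72.3% of these transcripts between genotypes in injured hips, and in 64.3% for the interaction. The part of this shift in the Hspd1 and Hspa8 results was not tested.

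**Figure D4:**
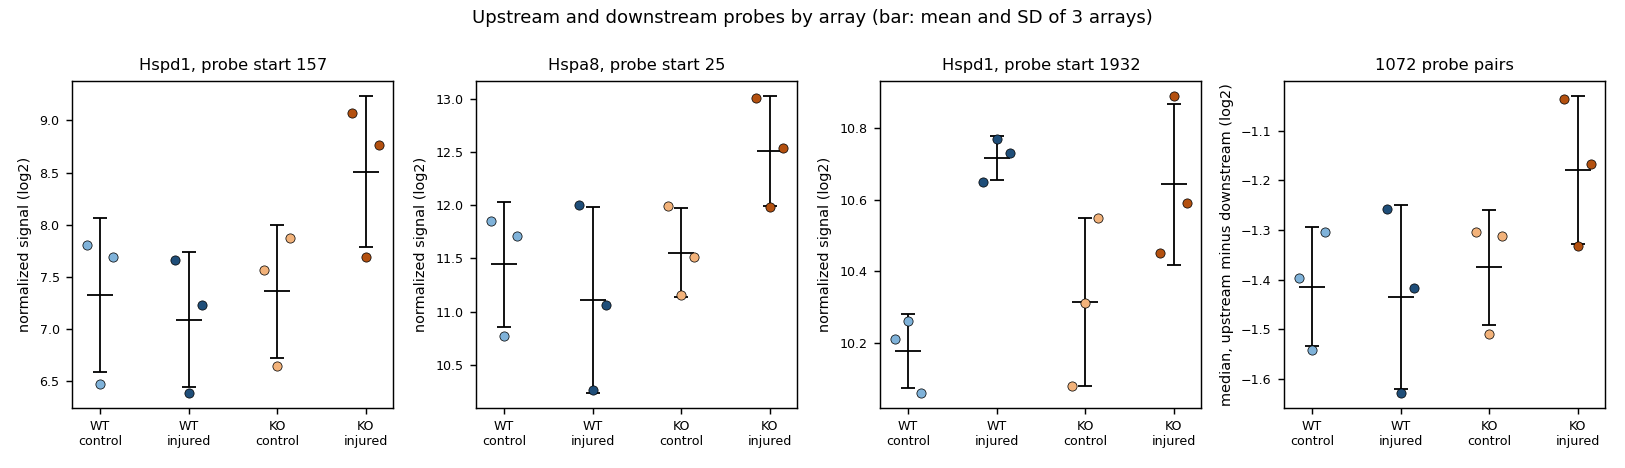
From left, normalized signal (log2) of the upstream Hspd1 probe, the upstream Hspa8 probe and the downstream Hspd1 probe on every array, and the median of upstream minus downstream signal (log2) over 1072 transcripts, with the mean and SD of 3 arrays. The upstream Hspd1 probe reads 9.07, 7.69 and 8.77 on the Mapk9 KO injured arrays, and in each of the 3 replicate numbers the median over transcripts is highest on the Mapk9 KO injured array.

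Other genes of the folding machinery were taken from 8 lists, of which 59 of 72 genes were in the table. In WT hips 2 of 59 were upregulated and 3 downregulated past the fold limit, against 7.51% and 7.16% of all genes. In Mapk9 KO hips 3 were upregulated and 7 downregulated, against 9.01% and 9.55%. On the adjusted p alone 7 were higher and 4 lower in WT, and 5 higher and 10 lower in Mapk9 KO hips. In either direction, 25.4% of all genes passed it in WT and 38.4% in Mapk9 KO hips. Those higher in WT included Hsp90ab1 (0.80, adjusted p = 0.0185, limma) and Fkbp5 (0.95, adjusted p = 0.00647, limma). The median change was 0.05 in WT and -0.07 in Mapk9 KO hips, beside -0.02 and -0.04 for all genes. Hsph1, an HSP110 that recharges HSP70 with nucleotide, was upregulated by 2.18 in WT (SE 0.21, adjusted p = 8.09e-05, limma) and 1.66 in Mapk9 KO hips (SE 0.18, adjusted p = 4.60e-05). Hsp90aa1, the inducible HSP90, read 8.15, 8.50 and 8.33 on the WT control arrays and 9.50, 9.44 and 9.78 on the WT injured arrays. It was upregulated by 1.25 in WT (SE 0.20, adjusted p = 0.00174, limma) and 1.51 in Mapk9 KO hips (SE 0.20, adjusted p = 0.000191), the WT change being 0.997, under the fold limit, without background correction. These genes carry their older symbols, Hsp105 and Hspca, in the table.

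Among the remaining lists, Hspa12b, a distant HSP70 relative, fell by 1.62 in WT (SE 0.22, adjusted p = 0.000581, limma) and by 1.57 in Mapk9 KO hips (adjusted p = 0.00135), and was detected on 1 of 3 WT injured arrays. Without background correction the Hspa12b change was -0.73 in WT and -0.77 in Mapk9 KO hips, under the fold limit, and the methods' t-test did not call it in Mapk9 KO hips (adjusted p = 0.0517). Hspa1l, an HSP70 gene best known from testis, was downregulated at least 2.00-fold in Mapk9 KO hips, where it was not detected post injury. Its fitted change (adjusted p = 0.000186, limma) came under the fold limit without background correction. Of the J-domain genes, 0 of 14 passed the fold limit in WT, where Dnajc5 was upregulated by 0.95 on the adjusted p alone (adjusted p = 0.0146, limma, lost with the methods' t-test and without WT injured replicate 1 or 2), and Dnajb4 passed it in the lower direction (0.0130) on arrays that did not detect it. In Mapk9 KO hips Dnajc5 was upregulated by 1.16, and Dnaja2 fell by 0.92 on the adjusted p alone (0.0160, lost with the methods' t-test and without any of 4 single arrays). Dnaja2 passed the fold limit without Mapk9 KO control replicate 1 (-1.18) or Mapk9 KO injured replicate 3 (-1.07). Dnajb5, detected on no array, is counted among the 7 genes lower past the fold limit, but its difference lies below detection. By the adjusted p alone, which 25.4% of all genes passed in WT and 38.4% in Mapk9 KO hips at 1 probe per gene, 0 of 6 subunits of the cytosolic chaperonin TRiC passed in either genotype, with 0 of 6 nucleotide exchange factors and partners and 0 of 3 heat shock transcription factors and partners. Of 7 mitochondrial chaperones and proteases 1 passed in WT, Grpel1, upregulated by 0.58 (adjusted p = 0.0440, lost with normexp and without any of 5 single arrays), and 0 in Mapk9 KO hips. Hspa9, the mitochondrial HSP70, was counted with the HSP70 genes. Its mean went from 12.32 to 13.02 in WT and from 12.60 to 12.92 in Mapk9 KO hips. The genes not named by the rule were named after their values were seen.

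**Figure D5:**
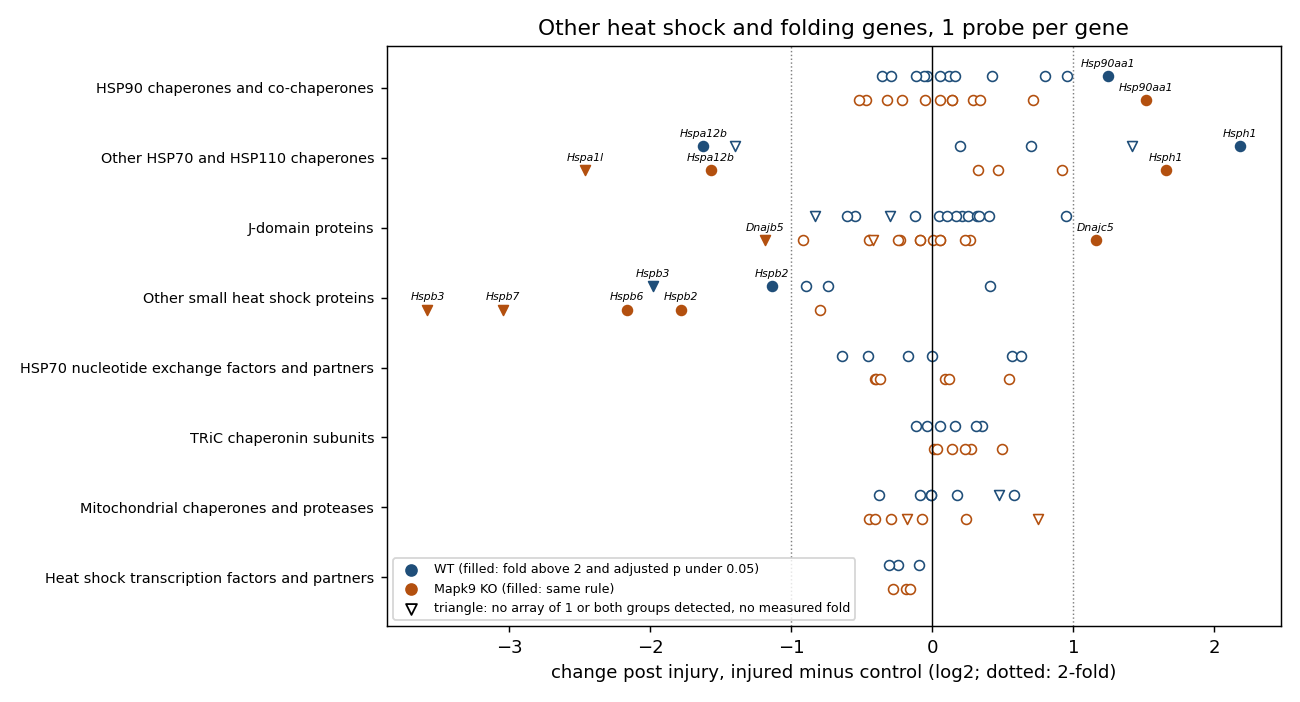
Change post injury (log2, injured minus control) of 59 other heat shock and folding genes in WT and Mapk9 KO hips, 1 probe per gene, grouped by list. Filled points passed the fold limit of 2 and an adjusted p under 0.05, among them Hsph1 at 2.18 in WT and 1.66 in Mapk9 KO hips, and triangles are fitted values of probes that no array of 1 or both groups detected.

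Over the 12 arrays, the genes whose main probe varied most like that of Hspa1a were Nfil3, Inhba, Arc, Atf3 and Trib3, each with a Pearson r of 0.997. Among the members, r with Hspa1a was 0.994 for Hspa1b, 0.958 for Dnajb1 and 0.875 for Hsf1, and it was lowest for Hspe1 (0.433) and Hspb8 (0.363). Atf3 and Hspa1b were not detected on any control array, nor Arc on any Mapk9 KO control array, so their r rests in part on signals below detection. All of these points share the split into control and injured arrays and the same libraries, and r is given as a description.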

How the data were processed

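Per the labels, total RNA of mouse hip cartilage was biotin-labelled and hybridized to Illumina BeadChip arrays, 12 in all. The authors deposited signal intensities of 45281 probes with a detection p-value each, and log2 values of 21004 probes that they had corrected for background with negative controls and normalized with vsn (version not given in the sources used here). The deposited log2 values were tested with limma 3.58.1 in R 4.3.3 on the 2 groups compared (all 12 arrays for the interaction), with Benjamini-Hochberg adjustment over all probes and a fold above 2. The number of arrays limits the precision. Same-numbered arrays of different groups correlated in their deviations from the group means (r between 0.153 and 0.390 over 18 pairs, and between -0.289 and 0.0825 over 36 other pairs), so the numbers were taken as pairs. The fits given first have no block, and values with the replicate number as a block stand beside them where they change a call. A gene's main probe had the highest mean over the arrays. Of the member probes, 16 of 17 matched RefSeq, and 2 more, of Hsf1 and Hspb1, lay outside the table and were detected on no array. Genes named were all member probes, up to 3 per list past the threshold in WT by size of change, and the 5 most correlated with Hspa1a. Members and lists were chosen with earlier results of these data known. The fits were tested on simulated data.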

Additional observations from a re-analysis of the deposited data

Results flagged for a closer look

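The upstream Hspd1 probe stood out because its injury change went in opposite directions in the genotypes, lower in 3 of 3 WT pairs and higher in 3 of 3 Mapk9 KO pairs. The WT change of -0.23 did not pass the test (adjusted p = 0.718, and 0.358 with the block), and leaving out either replicate 1 of the controls or replicate 2 of the injured arrays turned it above 0. The change in Mapk9 KO minus that in WT was 1.38 on the log2 scale. It passed with the replicate block (limma, adjusted p = 0.0329) and did not without it (0.494). The downstream Hspd1 probe gave -0.21 for the same difference (SE 0.25, adjusted p = 0.815).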

How the results depend on the processing

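Upregulation of Hspa1a and Hspa1b kept its direction and its side of the threshold in both genotypes under every alternative run, as did Hspb1 and Dnajb1 in Mapk9 KO hips. In WT hips the Dnajb1 change fell under the fold limit with either quantile normalization (0.93 and 0.91) and missed the adjusted p with the methods' t-test (0.0535), as Hspb1 did (0.179). The Hspb2 and Hspb3 falls in WT were not called with normexp (adjusted p = 0.0555 and 0.141), quantile normalization without background correction (0.0909 and 0.134) or the t-test (0.215 and 0.233). In Mapk9 KO hips the upstream Hspd1 change lost its call with all 12 arrays in the fit and with the t-test, and fell under the fold limit, to 0.80, with quantile normalization without background correction. The adjusted p of the upstream Hspa8 probe and of Bag3 in Mapk9 KO hips and of the dimmest downstream Hspa8 probe in WT also rose past 0.05 with all 12 arrays in the fit and with the t-test, and that of both Hspa8 probes with normexp (0.0503 and 0.136), as that of the dimmest did with quantile normalization without background correction (0.121). Bag3 in WT passed it with array medians subtracted (0.0395), all 12 arrays (0.0228) and without control replicate 1 (0.0327), and the main Hspa8 probe in WT with array medians subtracted (0.0421), all 12 arrays (0.0265) and the t-test (0.0426). By the adjusted p alone, the alternatives that keep all 17 probes called 5 to 11 members in WT (11 with array medians subtracted, 5 with the t-test and without WT injured replicate 3) and 6 to 12 in Mapk9 KO hips (12 with the replicate block, 6 with all 12 arrays, the t-test and without injured replicate 3).

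Quantile normalization without background correction, which compresses dim probes, lowered the probes past both the fold limit and the adjusted p to 1140 of injury in WT (60.4% of them higher, against 51.4%), 1756 in Mapk9 KO, 13 of genotype in control and 22 in injured hips. The methods' t-test called 1624 in WT (60.6% higher), 3 of them members, and 0 for genotype in control and in injured hips. All 12 arrays in 1 fit gave 44 for genotype in control hips. With the replicate block, as the pairing asks, genotype in injured hips called 188 probes with 2 members, and the interaction 112 with 1 member.

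Leaving out 1 array at a time gave 4 to 8 members in WT (8 without WT control replicate 3), 5 to 7 in Mapk9 KO, 0 in control hips, 0 to 1 in injured hips (1 without WT injured replicate 1) and 0 for the interaction. Over all probes it gave 17 to 412 for genotype in control hips and 0 to 242 for the interaction (412 and 242 without WT control replicate 3), and 23 to 154 for genotype in injured hips (154 without WT injured replicate 1, and 64 without Mapk9 KO injured replicate 2). The cause was not tested.

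Directions reversed only for uncalled values. With 1 array left out, the change in WT ran from -0.78 to 0.084 at the upstream Hspa8 probe (above 0 only without WT injured replicate 2) and from -0.66 to 0.12 at the upstream Hspd1 probe (0.01 and 0.12, without WT control replicate 1 and WT injured replicate 2). The change in Mapk9 KO hips ran from -0.12 to 0.013 for Hspb8 and from -0.043 to 0.42 for Hspe1. The interaction ran from -0.32 to 0.48 at the dimmest downstream Hspa8 probe, from -0.090 to 0.21 for Dnajb1 and from -0.45 to 0.076 for Bag3. At the other downstream Hspa8 probes it became 0.17 and 0.14 under both quantile normalizations, and the latter ran from -0.32 to 0.0028 with 1 array left out. A slide block was not run, as the columns name no slide. Folds at probes below detection on all arrays of a group are given as bounds for the deposited values. For Hspa1a, Hspa1b, Hspb3, Hspb7 and Hspa1l, the smallest fitted change over the alternatives lay under the bound.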
